A study of Mus musculus with 13 samples.

Results

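Very wide open regions were stretches of chromatin called open in a single library as 1 unbroken peak of 4000 bp or more. They were collected from the called peaks of 13 ATAC-seq libraries, in which the Tn5 transposase inserts sequencing adapters into accessible DNA. Members were chosen by measured width, and peaks of that width that overlapped by at least 1 bp between libraries were joined. This gave 104 wide regions, built from 249 wide peaks among 487975 peaks in all, or 0.0510% of the peaks. The same lists merged at any width held 99746 open regions, and each wide region lay in a merged region of its own. Width, and the number of libraries in which a region was wide, are therefore descriptions of how the members were selected and were not tested.

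The libraries came from cultures of mouse oligodendrocyte precursor cells (OPCs), the dividing cells that give rise to myelinating oligodendrocytes. OPCs were panned on an antibody to PDGFRα from P5-P7 pups of litters labelled AMGFAP-Cre;K27M, a Cre line that the study's methods call hGFAP-Cre. The tissue was pooled by region and genotype. The OPCs were grown in proliferation medium with PDGF, CNTF, neurotrophin-3 and forskolin, and frozen without differentiation. K27M cultures carried the H3.3 K27M knock-in switched on by Cre in neural stem and progenitor cells and their progeny, and controls were littermates, whose individual alleles the labels do not give. Brainstem gave 3 control and 3 K27M libraries and telencephalon gave 3 control and 4 K27M libraries, where telencephalon means the dissected cortex, corpus callosum and hippocampus that the labels call cortex. Each is named below by group and by its culture number, which was 41, 51, 59 or 61.

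Most accessible sites in a mammalian genome are short, about the length of DNA freed by the loss of a nucleosome or a few, and the typical sites are promoters and enhancers. Broader accessible domains are known at CpG islands and at strongly transcribed or developmentally regulated genes, where open chromatin reaches from the promoter into the gene body. A peak caller such as MACS2 joins neighbouring enriched stretches into a broad peak, so the length of a broad peak depends on the underlying chromatin and on how many reads cover the weaker stretches in between.

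4 stretches of 250 bases are given to show the kind of DNA that the wide regions hold. The first 3 end at the base before the start of Marcks, Pcdh17 and Pcdh7, which were wide in 10, 9 and 8 libraries, and the last is the middle of a wide region far from any coding start, near Sox2. They were read 5′ to 3′ on the coding strand of the gene, or on the plus strand for the last, from the mm10 assembly (GRCm38), and each CpG is in capitals. The Marcks stretch, chr10:37138921-37139170 on the minus strand, held 23 CpGs. The Pcdh17 stretch, chr14:84443313-84443562 on the plus strand, held 21, and the Pcdh7 stretch, chr5:57717717-57717966 on the plus strand, held 11. The stretch near Sox2, chr3:34443337-34443586, held 4 and had a GC content of 33.2%, against 54.4% for Marcks, 64.8% for Pcdh17 and 55.2% for Pcdh7.
Marcks: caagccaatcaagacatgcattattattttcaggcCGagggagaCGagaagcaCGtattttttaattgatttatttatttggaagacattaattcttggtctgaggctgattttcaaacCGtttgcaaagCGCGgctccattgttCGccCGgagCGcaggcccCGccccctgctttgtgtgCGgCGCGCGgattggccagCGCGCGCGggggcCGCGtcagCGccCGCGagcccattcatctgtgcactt
Pcdh17: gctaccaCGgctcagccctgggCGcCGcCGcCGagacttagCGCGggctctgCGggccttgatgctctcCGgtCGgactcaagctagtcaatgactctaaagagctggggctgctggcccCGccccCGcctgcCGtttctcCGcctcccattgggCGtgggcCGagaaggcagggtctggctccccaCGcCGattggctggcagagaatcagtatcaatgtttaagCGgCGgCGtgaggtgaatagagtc
Pcdh7: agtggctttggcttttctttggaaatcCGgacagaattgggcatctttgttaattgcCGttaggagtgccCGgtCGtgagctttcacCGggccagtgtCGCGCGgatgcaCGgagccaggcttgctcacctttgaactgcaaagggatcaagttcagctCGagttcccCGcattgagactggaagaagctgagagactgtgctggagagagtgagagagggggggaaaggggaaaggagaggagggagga
near Sox2: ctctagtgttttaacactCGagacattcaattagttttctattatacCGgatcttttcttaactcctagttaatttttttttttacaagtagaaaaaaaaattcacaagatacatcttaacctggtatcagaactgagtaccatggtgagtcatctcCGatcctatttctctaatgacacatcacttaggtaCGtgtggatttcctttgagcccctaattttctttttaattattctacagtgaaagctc

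The joined regions were 4001 to 6062 bp long with a median of 4394 bp, and covered 470816 bp together. The threshold cut through a continuous range of widths. The narrowest wide peaks were 4001 bp, at the start of Pcdh11x and at that of Sphk1 in K27M telencephalon culture 51. Just outside were a peak of 3999 bp at Cadm1 in control telencephalon culture 51 and one of 3995 bp at Pcdh15 in K27M telencephalon culture 51. Within 100 bp of the threshold there were 56 peaks above it and 61 below it.

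No region was wide in all 13 libraries. Of the 104 regions, 57 (54.8%) were wide in 1 library, 37 in 2 to 6 libraries and 10 in 7 or more, and the most was 10 libraries, reached by Marcks and Zfp462. A library in which a region was not wide nearly always still had it open. Over the 1352 pairs of a region and a library, 249 were wide, 545 (40.3%) held 1 narrower peak, 512 (37.9%) held 2 or more narrower peaks and 46 (3.40%) held none. A peak of some width was present in every library at 81 of the 104 regions. The remaining regions had a peak in at least 7 libraries.

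The lists carry no read counts, so sequencing depth is unknown, and the number of called peaks was the only measure of yield. It ranged from 16879 to 52466 per library, and longer lists mostly held more wide peaks. Control telencephalon culture 59, with the shortest list, had 0 wide peaks and a widest peak of 3734 bp. The 5 lists of 27768 to 34168 peaks had 3 to 14 wide peaks, and the 4 lists of 36054 to 45322 peaks had 11 to 26. The 3 longest lists differed: control brainstem culture 61 had 31 wide peaks among 52466, K27M telencephalon culture 51 had 51 among 52164 and K27M brainstem culture 41 had 62 among 48487. The last 2 libraries together held 113 of the 249 wide peaks, and 38 of the regions were wide only in one or the other of them (15 in K27M telencephalon culture 51 and 23 in K27M brainstem culture 41). Per 10000 peaks the number of wide peaks ran from 0 to 12.8, and it was highest in the same 3 lists, at 5.91, 9.78 and 12.8.

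**Figure D1:**
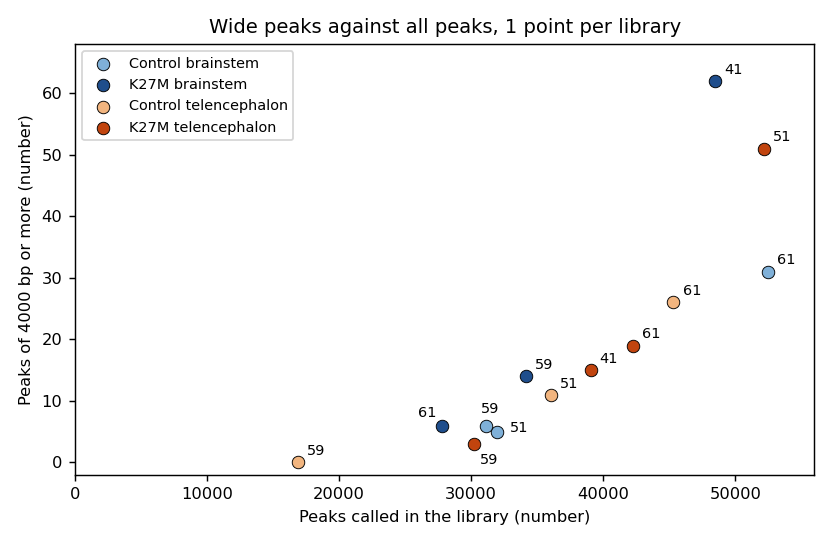
Number of peaks of 4000 bp or more (vertical axis) against the number of all called peaks (horizontal axis) in each of the 13 libraries, coloured by group and labelled with the culture number. Libraries with up to 34168 peaks sit at 14 wide peaks or fewer, and K27M brainstem culture 41 and K27M telencephalon culture 51 stand above all others at 62 and 51.

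The 10 regions wide in 7 or more libraries are described here, a choice made after their values were seen. They held the starts of Marcks, an actin-binding substrate of protein kinase C, and of Zfp462, a zinc finger protein. Others were those of the protocadherins Pcdh17 and Pcdh7, the adhesion molecule Cadm1 and Erf, an ETS repressor controlled by ERK. Lfng, the glycosyltransferase that modifies Notch receptors, and Sema6a, a transmembrane semaphorin, were also among them. Another region held the coding starts of AC134908.4, Fam173a and Metrn, and is called the Fam173a and Metrn region below. Metrn encodes the secreted protein meteorin. The last region held the start of AC122464.1, a processed pseudogene. All 10 had a peak in every library.

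At Marcks (chr10:37137019-37141793) the peak was a single run in 10 libraries and of nearly the same extent in each. Its widths were 4425, 4314 and 4432 bp in control brainstem cultures 51, 59 and 61, and 4431 and 4304 bp in K27M brainstem cultures 41 and 59. They were 4407 and 4424 bp in control telencephalon cultures 51 and 61, and 4590, 4426 and 4520 bp in K27M telencephalon cultures 41, 51 and 61. The runs began 2523 to 2872 bp upstream of the Marcks start and ended 1685 to 1902 bp downstream of it, so each also covered the starts of the divergent noncoding gene 5930403N24Rik, which lie 482 to 2169 bp upstream. In the 3 other libraries the same window was only partly called. K27M brainstem culture 61 had 2 peaks of 1285 and 587 bp, neither of which reached the Marcks start, and K27M telencephalon culture 59 had 2 of 707 and 2105 bp. Control telencephalon culture 59 had a single peak of 904 bp, lying wholly upstream over one end of the noncoding gene's starts.

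**Figure D2:**
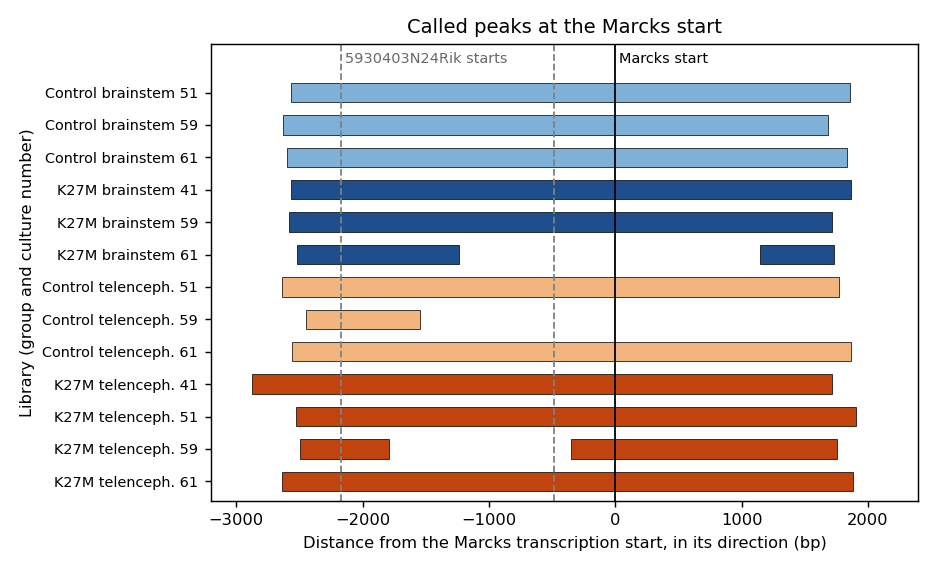
Extent of every called peak around the Marcks start in the 13 libraries (bars, coloured by group), as distance in bp from the start in the direction of the gene; dashed lines mark the outermost starts of the noncoding gene 5930403N24Rik. In 10 libraries 1 bar of 4304 to 4590 bp spans both genes' starts, and in the other 3 only parts of the same window were called.

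Zfp462 (chr4:54944933-54949561) was wide in 10 libraries too, but not in the same ones. Its widths there ran from 4011 bp in K27M brainstem culture 61 to 4473 bp in control telencephalon culture 61, and the other 3 libraries had longest peaks of 1254, 3631 and 1877 bp. K27M brainstem culture 61 and K27M telencephalon culture 59, which were narrow at Marcks, were wide at Zfp462 (4011 and 4108 bp), whereas control brainstem culture 59 and K27M brainstem culture 59 were wide at Marcks only. Almost the whole Zfp462 region, 97.5% of its bases, lay downstream of the first start.

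Pcdh17 and Pcdh7 gave the longest runs among the recurrent regions. Pcdh17 (chr14:84442884-84448714) was wide in 9 libraries, with 5290 and 5189 bp in control brainstem cultures 59 and 61, 5774, 4737 and 4242 bp in K27M brainstem cultures 41, 59 and 61, 5239 bp in control telencephalon culture 61, and 5260, 5421 and 5304 bp in K27M telencephalon cultures 41, 51 and 61. The 4 other libraries had longest peaks there of 1306 to 2892 bp. Pcdh7 (chr5:57714390-57719930) was wide in 8 libraries at 4847 to 5475 bp, and was the widest peak of all in control brainstem cultures 51 and 61, control telencephalon cultures 51 and 61 and K27M telencephalon culture 41. For both genes the wide and the narrow libraries came from each region and each genotype.

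Of the 12 coding protocadherin genes outside the clusters, 4 had a start in a wide region, beside 0.418% of all coding genes (Pcdh7, Pcdh10, Pcdh11x and Pcdh17), and Pcdh15 reached 3995 bp. None of the 56 clustered protocadherin genes had a start in a wide region, and beside 0.418% of all coding genes this shows no shortfall. Of 23 cadherin genes named Cdh there were 2, Cdh10 and Cdh20. Pcdh10 was wide in 4 libraries, among them K27M telencephalon culture 51 at 5774 bp. These families were looked at after the regions were known.

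Erf (5132 bp at most) and Lfng (4877 bp) were wide in 8 libraries each, Cadm1 (4300 bp) in 8, Sema6a (4238 bp) in 7 and the Fam173a and Metrn region (5425 bp) in 7. The last took in the whole of Metrn and was split into 2 or 3 peaks in 5 libraries, with longest peaks of 1126 to 2358 bp, while control telencephalon culture 59 had a single peak of 373 bp. Cadm1 was the opposite case, since 3 of its 5 narrow libraries had a single peak of 3712 to 3999 bp, just under the threshold. AC122464.1 differed from the other 9 in base composition, with a GC content of 43.6% and 49.6% of its bases in annotated repeats, and its nearest coding start was 27432 bp away.

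**Figure D3:**
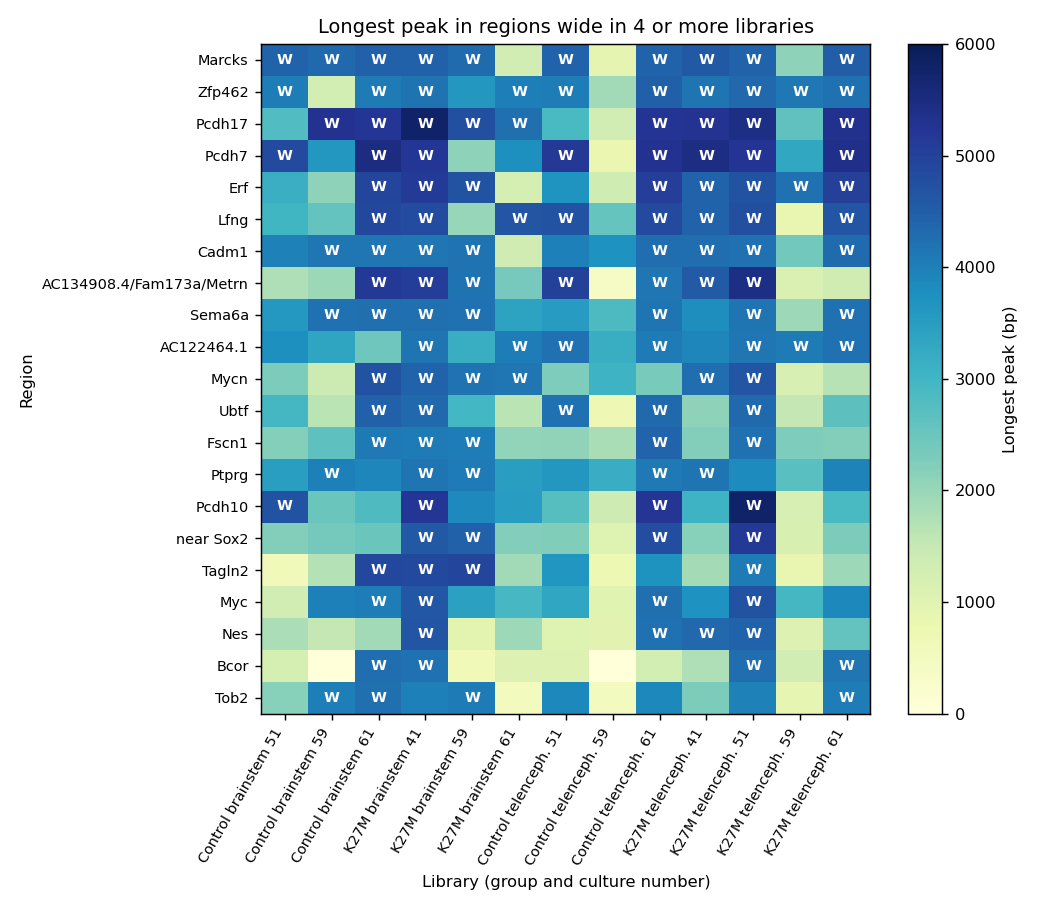
Longest called peak in bp (colour) in the 21 regions that were wide in 4 or more libraries (one above the other) in each of the 13 libraries (side by side); W marks a peak of 4000 bp or more. Control telencephalon culture 59 has no W, K27M brainstem culture 41 and K27M telencephalon culture 51 have the most, and all 21 regions have W in both regions of origin and both genotypes.

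Among the regions that held no annotated transcription start, the one most often wide (chr3:34440889-34446035) lay within the transcribed span of the long noncoding gene Sox2ot. This region was 204370 bp from the start of Sox2, which encodes a transcription factor of neural progenitors. It was wide in 4 libraries, at 4591 and 4452 bp in K27M brainstem cultures 41 and 59, 4795 bp in control telencephalon culture 61 and 5147 bp in K27M telencephalon culture 51. In the other 9 libraries it was called as 2 or 3 separate peaks with a longest peak of 1048 to 2494 bp. Neighbouring peaks of 1 list were never closer than 866 bp anywhere in these data, so a region was either joined or split by a gap of at least that length. The smallest gap was not the same in each list and ran from 866 to 1132 bp. When peaks of 1 library lying up to 1500 bp apart were joined, an alternative chosen after the data were seen, this region spanned 4427 to 5147 bp in all 13 libraries and was the only region to do so. Under the same joining, Lfng was wide in 12 libraries and Marcks and Pcdh17 in 11.

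The 8 widest single peaks came from 7 regions. The widest was 6062 bp over the start of Bcl11a, a zinc finger repressor, in K27M telencephalon culture 51, and the next was 5846 bp over Ccnd1, the cyclin of the G1 phase, in K27M brainstem culture 41. Pcdh17 and Pcdh10 followed at 5774 bp, then Tle3, a corepressor, at 5629 bp, a region near Qk at 5558 bp and Pcdh7 at 5475 and 5438 bp. Bcl11a and Ccnd1 were wide in these single libraries only. Bcl11a had longest peaks of 698 to 2761 bp in the other 12 libraries, and K27M telencephalon culture 51 stood alone. Ccnd1 had longest peaks of 717 to 3948 bp elsewhere, with 5 libraries between 3806 and 3948 bp.

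Among the 57 regions wide in 1 library, the 5 widest were Bcl11a, Ccnd1, the region near Qk, the histone genes Hist1h2af, Hist1h3g and Hist1h4h (5399 bp in K27M telencephalon culture 51) and Zmiz1, a coactivator (5041 bp in K27M brainstem culture 41). The histone region was called as 2 peaks with a longest peak of 1468 to 2537 bp in each of the other 12 libraries. Isl2, a LIM homeodomain gene known from motor neurons, had the fewest lists with any peak. Its run was 5021 bp in K27M brainstem culture 41, the 6 other libraries with a peak had longest peaks of 335 to 1423 bp, and 6 libraries had none. Isl2 was singled out after its values were seen, and no second library carried a run of that kind.

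2 members stood apart by their low fold, the deposited ratio of signal to the local background of the same library. The region near Qk had a fold of 1.74 where it was wide and no peak in 4 libraries. The region near AC149090.1, on the unplaced scaffold JH584304.1, had folds of 1.38 to 1.59 over the 13 libraries and was wide, at 4084 bp, in K27M brainstem culture 61. They were the 2 lowest members by the mean percentile of their fold in the list of each library, at 0.0941 and 0.00970, followed by Gse1 at 0.451 and Erf at 0.906.

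Nearly all wide regions covered a gene start. A transcription start lay inside 95 of the 104 regions (91.35%), and 97 (93.3%) overlapped a promoter, taken as 2 kb upstream to 1 kb downstream of a start. The start of a coding gene lay inside 85 regions. In 8 others the starts were those of noncoding RNA genes and in 2, AC122464.1 and Gm49532, that of a processed pseudogene, whose annotated start is the end of an inserted copy and need not be a promoter. A long noncoding gene started beside a coding one in 24 regions. Among the 12976 other merged regions found in every library, 66.5% held a start, leaving out 18 on sequences outside the assembled chromosomes. These were shorter, with a median of 1736 bp with a start and 1523 bp without. A longer region holds a start more often by length alone, and lengths were not matched. In all, 134 genes started in a wide region, 92 of them coding (0.418% of the 21992 coding genes in the annotation), and 21 regions held a gene entire, such as Ier5l, Adm, Gadd45g and Metrn.

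Measured from the most upstream coding start inside them, the wide regions reached into the gene more than away from it. In the 81 regions with a single coding gene, a median of 3308 bp (quartiles 2574 and 3939) lay downstream of the most upstream start and 955 bp (403 and 2043) upstream of it. More bases lay downstream in 65 of the 81. This measure counts bases between alternative starts of a gene as downstream. The other shared regions were not measured this way, so the split is not shown to be particular to wide regions. Tagln2 (98.5% downstream), Cic (98.4%) and Zfp488 (97.8%) were among the most one-sided, and Tnrc18 (10.2%) and Lmf1 (10.3%) extended mostly upstream.

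Some members were neighbours. Leaving gaps of up to 500 kb, 5 groups held 12 of the regions. Tnrc18, Fbxl18 and Fscn1 lay within 147.3 kb of chromosome 5, and Sox8, Lmf1 and the Fam173a and Metrn region within 230.0 kb of chromosome 17. Erf and Cic, both repressors that act downstream of receptor tyrosine kinase signalling, lay within 35.9 kb of chromosome 7. The regions as a whole were spread over 21 chromosomes and scaffolds.

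The DNA of the wide regions was moderately rich in CpG. The 95 wide regions with a start had a median GC content of 55.7% and a median observed over expected CpG ratio of 0.580, against 56.6% and 0.672 for the 8627 other shared regions with a start, which were shorter (median 1736 bp). CpG islands were read as runs of 200-bp windows with at least 50% GC and a CpG ratio of at least 0.6. The longest run was 850 bp in the median wide region with a start and 750 bp in the others, and runs over 1000 bp were found in 35.8% and 23.95% of them. In each of the 103 wide regions with a sequence the island run was shorter than the region. The longest runs were 3050 bp at Bcor, a corepressor, 2700 bp at Ubtf and in the region at Tchh, and 2200 bp at Cadm1. The 8 wide regions with no start for which the assembly gave a sequence had a median GC content of 45.9% and a CpG ratio of 0.194, close to the 47.5% and 0.225 of the 4349 other shared regions with no start. The region at Tchh, which encodes a hair follicle protein, was the exception and had the highest CpG ratio of all members (0.861).

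**Figure D4:**
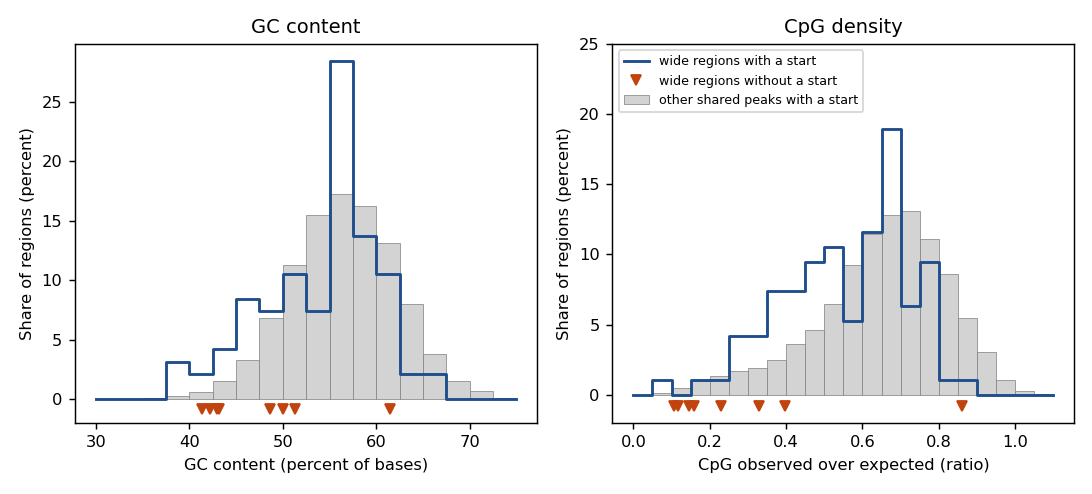
Distribution of GC content in percent (left) and of the observed over expected CpG ratio (right) for the 95 wide regions with a transcription start (blue line) and for the 8627 other shared regions with a start (grey bars), in percent of regions per bin; triangles below the axis mark the 8 wide regions without a start. The wide regions with a start have the lower median CpG ratio (0.580 against 0.672), and 7 of the 8 triangles lie under 0.4.

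Of 25 listed transcription factors of the oligodendrocyte lineage, 5 had a start in a wide region, beside 0.418% of all coding genes: Sox8 in 2 libraries, and Sox10, Sox6, Zfp488 and Prrx1 in 1 each. Olig1 and Olig2, which specify the lineage, had promoter peaks of at most 1426 and 1780 bp. Sox10, which drives oligodendrocyte differentiation genes, was 4378 bp in K27M telencephalon culture 51 and 440 to 2984 bp elsewhere. None of the 14 OPC surface and marker genes qualified, although 11 of them had a promoter peak in every library. Pdgfra, the receptor used for panning, had a promoter peak in all 13 libraries with a longest of 3413 bp, whereas Cspg4, another OPC marker, had one in 3 libraries only. No myelin gene of 11, no Hox gene of 39 and no gene of 30 other regional transcription factors was in a wide region. With 0.418% of all coding genes in wide regions, a count of 0 in lists this short, the 14 OPC markers among them, shows no shortfall.

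Of 24 immediate-early and Myc genes, 4 were in wide regions, beside 0.418% of all coding genes: Mycn in 6 libraries, Myc in 4, Junb in 2 and Jun in 1. Mycn was 4709 bp in control brainstem culture 61, 4409, 4185 and 4137 bp in K27M brainstem cultures 41, 59 and 61, and 4258 and 4619 bp in K27M telencephalon cultures 41 and 51, and the other 7 libraries, all 3 of control telencephalon among them, had longest peaks of 1186 to 3060 bp. Ier2 missed the threshold narrowly, with a longest peak of 3989 bp and a median of 3700 bp over the libraries. Of 15 growth factor response genes 1, Ccnd1, was in a wide region, beside 0.418% of all coding genes. For other cell types the count was 0 of 9 astrocyte, 0 of 12 neuron, 0 of 10 microglia and 0 of 8 endothelial markers. Beside 0.418% of all coding genes, these counts of 0 show no shortfall in lists this short. No promoter peak in any library was found for 7 microglia, 3 endothelial, 1 astrocyte and 0 neuron markers. Of the others, P2ry12 of microglia had one in 12 libraries and Flt1 of endothelium in 11.

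Wide peaks were not sharp peaks. Their fold ranged from 1.49 to 3.11 with a median of 2.32, against a median of 2.92 for all peaks, and the median wide peak stood at percentile 7.098 of its own list by fold. By the deposited −log10 q-value it stood at percentile 63.6. Both values are averages over the length of a peak and so are not independent of its width. Within the recurrent regions the fold varied little. Marcks had a mean fold of 2.29 ± 0.178 (SD, n = 13 libraries) and Zfp462 of 2.33 ± 0.0982, and in the libraries where they were wide the means were 2.30 ± 0.131 and 2.34 ± 0.112.

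The number of wide peaks varied widely within every group. Control brainstem libraries had 5, 6 and 31 wide peaks and K27M brainstem libraries 62, 14 and 6. Control telencephalon libraries had 11, 0 and 26, and K27M telencephalon libraries 15, 51, 3 and 19. The ranges of all 4 groups overlapped. The mean was 20.7 ± 22.5 (SD, n = 6) in brainstem and 17.9 ± 17.1 (n = 7) in telencephalon, a ratio of 1.16, and it was 24.3 ± 22.9 (n = 7) in K27M and 13.2 ± 12.5 (n = 6) in control, a ratio of 1.84. Each SD was about the size of its mean.

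The direction was not kept within culture numbers. Brainstem had more wide peaks than telencephalon in culture 41 (62 and 15) and culture 59 (means of 10 and 1.5), and fewer in culture 51 (5 and a mean of 31) and culture 61 (means of 18.5 and 22.5). In culture 51 the K27M library had 51 against a mean of 8 in controls, and in culture 59 the K27M mean was 8.5 against 3, whereas in culture 61 K27M had 12.5 against 28.5 in controls. Culture 41 held no control library and culture 51 no K27M brainstem library. The comparisons in culture 51 therefore mixed region with genotype. Among its controls alone, brainstem had 5 wide peaks and telencephalon 11, and within telencephalon K27M had 51 and control 11. Without K27M brainstem culture 41 the ratio of brainstem to telencephalon was 0.694, and without that library and K27M telencephalon culture 51 together the ratio of K27M to control was 0.866. The number of called peaks differed between libraries of 1 group by up to 28443. Counted per 10000 peaks, the ratios were 1.19 by region and 1.80 by genotype, and with every list cut to its 16879 most significant peaks they were 1.13 and 1.71.

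No region was wide in every library of one region of origin or genotype and in none of the other. Since control telencephalon culture 59 had no wide peak, this could occur for brainstem or K27M alone. Of the 47 regions wide in 2 or more libraries, 41 were wide in libraries from both regions of origin, 3 in brainstem only (Brinp3, Rhoq and a region near Notch1) and 3 in telencephalon only (Alcam, Zfp516 and the Jmjd1c and Reep3 region), each of these in 2 libraries. By genotype, 37 were wide in both, 9 in K27M only and 1, Zfp423, in controls only. The 9 included Ptch1, the Hedgehog receptor, Sox8, Junb and Gadd45g, none was wide in more than 3 libraries, and the K27M libraries held 170 of the 249 wide peaks. Of the 57 regions wide in 1 library, 47 were wide in a K27M library, 38 of them in K27M brainstem culture 41 or K27M telencephalon culture 51.

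Fold did not enter the width rule that chose the members and was compared between groups, but as an average over the peak it is not independent of width. Members were also admitted unequally by genotype, since K27M libraries held 170 of the 249 wide peaks. The fold differences of the members by genotype are therefore not independent of how the members were chosen. The log2 fold was centred on the median of each library, which had ranged from 1.53 to 2.02, and fitted with limma over the 13075 merged regions found in all 13 libraries, with region, genotype and culture number as terms. Of the 104 wide regions 81 entered the fit. By region of origin none of the 81 passed an adjusted p of 0.05, in a fit that called 3 of the 13075 regions (0.0229%), all higher in telencephalon, and 0% higher in brainstem. By genotype, and for the interaction of region and genotype, no member and no other region was called (0%). At an unadjusted p under 0.05, 1 member (1.23%) differed by region against 6.59% of all regions tested, 1 (1.23%) by genotype against 4.59%, and 0 by the interaction against 4.12%. These small counts rested on single libraries. Without K27M brainstem culture 61 they were 10 of 82 members (12.2%) by region against 7.68% of all and 7 (8.54%) by genotype against 5.88%, and by region they were 6 without K27M telencephalon culture 51, 5 without control telencephalon culture 61 and 3 without control brainstem culture 51. None passed the adjusted threshold in these fits.

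The member nearest to a call by region was Pik3r1, which encodes the regulatory subunit of PI3 kinase. Its log2 fold differed by −0.27 ± 0.08 (SE) for brainstem minus telencephalon, with a limma p of 0.00189 and an adjusted p of 0.418. Next were Vim, the intermediate filament gene, at 0.14 ± 0.07 and Pcdh10 at −0.16 ± 0.08, both with a limma adjusted p of 0.783. By genotype the smallest p belonged to Skida1, with a log2 fold of −0.18 ± 0.08 for K27M minus control (limma p of 0.0347, adjusted p of 0.999), then Tshz2 and Bcl11a, both at −0.13 ± 0.08. For the interaction they were Pcdh10 (0.28 ± 0.17), Mycn (0.25 ± 0.16) and Csmd2 (0.24 ± 0.17), each with an adjusted p of 0.999. Marcks differed by −0.0037 ± 0.078 between regions and by −0.015 ± 0.085 between genotypes.

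The median difference of the 81 members was −0.0372 on the log2 scale for brainstem minus telencephalon, with 66 below 0, beside −0.00404 over all regions tested. It was −0.0307 for K27M minus control, with 60 below 0, beside −0.000873. The signs of the members' own medians depended on the scaling, but their place below the median of all regions did not. Members minus all regions was −0.0331 by region and −0.0299 by genotype, with or without centring. With quantile normalisation it was −0.00808 and −0.0134. Without centring the members' medians were 0.0313 by region, with 21 below 0, and 0.00336 by genotype, with 39 below 0, beside 0.0644 and 0.0332 over all regions. With quantile normalisation they were −0.00812 and −0.0125, with 46 below 0 in each. Both comparisons used the same libraries, and no test was made of these medians.

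**Figure D5:**
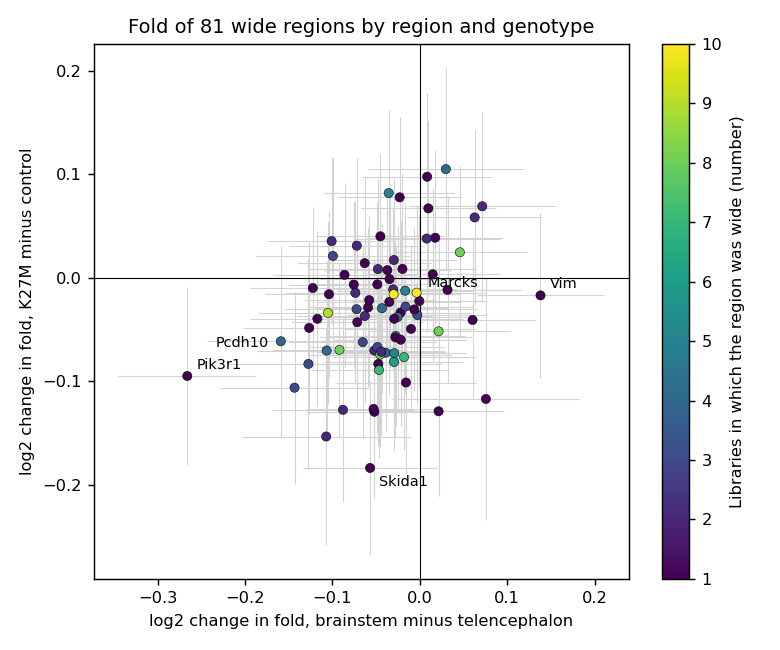
log2 difference in fold of the 81 wide regions found in all libraries, brainstem minus telencephalon (horizontal axis) against K27M minus control (vertical axis), with SE bars from limma and coloured by the number of libraries in which the region was wide. Points lie within −0.266 and 0.138 on the horizontal axis, and none passed an adjusted p of 0.05.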

How the data were processed

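Omni-ATAC libraries of 13 OPC cultures (3 or 4 per group, culture number as replicate) were analysed. The authors ran the nf-core ATAC-seq pipeline. The submitters' processing notes name BWA 0.7.17-r1188 and MACS2 2.2.7.1, and reads in the ENCODE blacklist of mm10 were dropped before broad peaks were called in each library alone. The deposited lists give each peak's start and end, a fold (ratio) over local background, and −log10 values of p and q, all averaged along the peak (the q-value is p adjusted over the list), with no normalization between libraries. The deposited score, which follows the q-value, and the −log10 p served only the checks and alternatives. The calling cutoff is not given in the sources used here, and no file used here holds read counts, so depth is unknown and a missing peak means not called.

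Peaks of 4000 bp or more were joined where they overlapped by 1 bp. Starts came from GENCODE M21, and base composition and sequences from the GRCm38 assembly of RefSeq. Fold was tested with limma 3.58.1 (R 4.3.3, eBayes with trend, Benjamini-Hochberg over all regions tested), on the log2 of the fold averaged by width over a library's peaks in a merged region, with no pseudocount. On simulated data the fit was tested for recovery of known changes by region of origin. The simulated libraries were drawn with no culture effect, so this does not give the power to find changes in the members. The labels name cultures but not animals. In the main fit p-values measure the spread left between libraries after region, genotype and culture number, not a spread between animals. Alternatives changed the width limit, the number or significance of peaks, the joining rule, the normalization, the culture block and the libraries used.

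The members, gene lists and comparisons were chosen with earlier results of these data known. Regions were named by rule: the 8 widest peaks, the 5 widest wide in 1 library, those wide in 10 or more libraries, and the 3 smallest p per limma contrast; other names were chosen after their values were seen.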

Additional observations from a re-analysis of the deposited data

How the results depend on the processing

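The 104 regions, 57 wide in 1 library, 93.3% over a promoter, and ratios of 1.16 by region and 1.84 by genotype depended on the limits as follows. At 3000 bp there were 665 regions, 309 wide in 1 library and 82.3% over a promoter, and at 5000 bp 15, 9 and 86.7%. With lists cut to the same 16879 peaks there were 56 regions, 27 in 1 library, and with a p of 1e-10 or less 38 and 24. Joining peaks up to 1500 bp apart, added after the data were seen, gave 209 regions, 95 in 1 library, 1 wide in every library, 84.7% over a promoter and a genotype ratio of 1.22. Joining at 500 bp changed nothing, because no gap was that short. Without K27M brainstem culture 41 and K27M telencephalon culture 51, also added, there were 60 regions, 34 in 1 library, and ratios of 1.01 by region and 0.866 by genotype. The 20 widest peaks of every library, likewise added, gave 116 regions, 67 in 1 library and none in all. Leaving out single libraries gave 81 to 104 regions, 46 to 58 in 1 library, 92.1% to 94.9% over a promoter, and ratios of 0.694 to 1.68 by region, under 1 without K27M brainstem culture 41 or control telencephalon culture 59 (0.992), and of 1.37 to 2.53 by genotype. By genotype the ratio was 1.49 at 3000 bp, 2.14 at 5000 bp and 2.51 with a p of 1e-10 or less, and by region it was 0.875 at 5000 bp.

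With the culture number as a replicate block, the mean of the ratios within cultures was 2.95 by region (4.13, 0.161, 6.67 and 0.822 in cultures 41, 51, 59 and 61) and 3.22 by genotype (6.38, 2.83 and 0.439 in cultures 51, 59 and 61). The mean of telencephalon over brainstem was 1.95, also above 1, so the blocked value by region gives no direction. Both ratios of culture 51 mixed region with genotype, since that culture held no K27M brainstem library. In the limma fits 0 members were called under every alternative, without the replicate block too (smallest adjusted p 0.628 by region). Culture numbers were not shown to pair the libraries by their fold: deviations from the group mean had a mean correlation of 0.0801 over 16 pairs of the same number, of which 5 were over 0.1, and of −0.0273 over 47 pairs of different numbers, of which 7 were. The block was kept because the study's methods account for matched cultures.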

Other observations

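The members named here were picked after their values were seen and were in none of the lists above. Ubtf, the factor that keeps ribosomal RNA genes active, was wide in 5 libraries, with up to 4432 bp. Nes, the intermediate filament gene of neural progenitors, was wide in 4, with up to 4622 bp, and Ptch1 in 2, with up to 5388 bp. Igfbp3, a carrier of insulin-like growth factors, and Tcf12, a partner of lineage bHLH factors, were wide in 3 libraries each. Tcf12 had the lowest GC content of all members, 37.5%, and no CpG island run, unlike most members over a coding start. Foxp2, a forkhead gene, was wide in K27M brainstem culture 59 alone, at 4536 bp, and had a peak in 10 of the 13 libraries.

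Taking the 20 widest peaks of every library in place of a fixed width, 116 regions resulted, of which 73 overlapped a member. Pcdh7 was among the 20 widest in 11 libraries and Marcks and Pcdh17 in 9. Ier2, an immediate-early gene, was among the 20 widest in 6 libraries and Brd2, a bromodomain gene, in 4, although neither reached 4000 bp in any library. In control telencephalon culture 59, which had no wide peak, 7 of its 20 widest peaks lay on a member.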
